A study of Homo sapiens with 2 samples.

Results

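The imprinted 14q32 cluster of microRNAs (miRNAs) was examined by quantitative reverse-transcription PCR in CL1-5, a human lung adenocarcinoma cell line with high invasiveness. The study held 1 RNA sample of CL1-5 cells carrying the empty vector pcDNA3.1 (the control) and 1 of CL1-5 cells overexpressing ANGPTL1, a secreted angiopoietin-like protein; cells of both samples had been selected with G418 for 4 weeks, per the labels. Whether the stable cells were a pool or a single clone is not given in the sources used here. Members were chosen by assay name from a list of 40 names of 14q32 miRNAs. Of these names 31 stood on the card, on 33 of its 365 miRNA assays, because miR-376a and miR-432 each had 2 assay numbers. The other 9 names (miR-136, miR-154, miR-370, miR-377, miR-431, miR-487a, miR-495, miR-539 and miR-655) were not analysed here. Since each group held 1 sample, without replicates, the values below describe these 2 RNA samples, and no test, standard error or p-value is given.

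This cluster lies in the DLK1-DIO3 domain, where the protein-coding genes are expressed from the paternal chromosome and the long noncoding RNAs and miRNAs from the maternal one. The miRNAs are cut from long transcripts of 1 strand and are known for high levels in placenta, embryo and brain. A first group is read from the strand opposite RTL1, a retrotransposon-derived gene active in placenta, or from nearby. Those of its miRNAs that lie inside the RTL1 span are complementary to the RTL1 transcript. Of these, miR-127 and its neighbours are known to direct cutting of that transcript. The second group, from miR-379 to miR-656, is a dense array of hairpins farther along the same strand.

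All 40 names were matched to 38 RefSeq hairpin genes of build GRCh38.p14 on chromosome 14, all on the plus strand. The first group of 7 names (miR-127, miR-136, miR-370, miR-431, miR-432, miR-433 and miR-493) was represented by 5 assays of 4 names. MIR433, MIR127 and MIR432 lie within the span of RTL1 (chr14:100879753-100903722), which is read from the minus strand, as do MIR431 and MIR136; MIR493 starts at position 100869060, outside that span. MIR370 lies within the span of the noncoding gene MEG8 (chr14:100889649-100999113). The second group of 32 names, with 26 on the card as 27 assays, runs over 44.7 kb from MIR379 (start 101022066) to MIR656 (end 101066801). The start of MIR379 lies 153.0 kb beyond that of MIR493 and 110.9 kb beyond the end of MIR370. MIR337, between MIR493 and MIR431, was counted in neither group.

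The mature sequences of the members seen below cycle 35 in at least 1 sample are shown because every ratio below rests on them. They are RefSeq sequences of the same build, written 5′ to 3′, with the seed (bases 2 to 8, which pair with target transcripts) in capitals. Where the assay name gives no arm of the hairpin, both arms are shown, since the name does not say which of them the primers read. From the RTL1-antisense group these are miR-127 and miR-432.
miR-127-5p: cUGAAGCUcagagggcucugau
miR-127-3p: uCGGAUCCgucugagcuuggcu
miR-432-5p: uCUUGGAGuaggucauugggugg
miR-432-3p: cUGGAUGGcuccuccaugucu
From the miR-379 to miR-656 group they are the following. Names are in order along the chromosome, but the miR-376a sequences are not in order of position.
miR-411-5p: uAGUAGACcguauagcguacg
miR-411-3p: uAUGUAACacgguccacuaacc
miR-380-3p: uAUGUAAUaugguccacaucuu
miR-376a-3p: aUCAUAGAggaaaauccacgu
miR-376a-5p: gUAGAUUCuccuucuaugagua
miR-376a-2-5p: gGUAGAUUuuccuucuauggu
miR-487b-5p: gUGGUUAUcccuguccuguucg
miR-487b-3p: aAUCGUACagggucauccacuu
miR-382-5p: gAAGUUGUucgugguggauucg
miR-382-3p: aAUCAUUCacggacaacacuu
miR-134-5p: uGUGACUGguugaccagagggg
miR-134-3p: cCUGUGGGccaccuagucaccaa
miR-485-3p: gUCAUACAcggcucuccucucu
miR-410-5p: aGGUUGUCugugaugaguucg
miR-410-3p: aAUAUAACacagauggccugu

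The members do not share 1 seed. The 71 mature sequences of the 40 names held 64 seeds, and 7 seeds stood on more than 1 sequence. Among the members shown, miR-376a-3p shares its seed with miR-376b-3p, miR-411-3p with miR-379-3p, miR-410-5p with miR-494-5p, miR-485-3p with miR-539-3p and miR-487b-5p with miR-487a-5p. miR-411-3p and miR-380-3p differ in their seeds at the last base only (C8U, from miR-411-3p to miR-380-3p, counted from the 5′ end).

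Values are threshold cycles (Ct), the PCR cycles at which the fluorescence of an assay passes a fixed threshold; 1 cycle less means about 2 times the template if each cycle doubles it. The run ended at cycle 40, and a deposited 40 was taken to mean no amplification, and an assay counted as detected below cycle 35. Delta Ct is the Ct of an assay minus that of the small nucleolar RNA RNU48 in the same sample, which was 20.79 in vector control cells and 21.21 in ANGPTL1 cells. The log2 ratio is control delta Ct minus ANGPTL1 delta Ct; relative to RNU48, a positive value means more of the miRNA in ANGPTL1 cells. Where an assay was detected in 1 sample alone, its later Ct was set to 35 and the ratio is a bound ("at least"). Assays differ in primer efficiency, so cycles compare an assay between samples and do not rank miRNAs against each other. In bulk RNA a smaller share of cells with a miRNA and less of it per cell cannot be told apart.

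In each sample a smaller share of the 14q32 assays than of all miRNA assays passed the limit. More of the 14q32 assays passed it in ANGPTL1 cells than in the control. Of the 33 assays, 3 (9.1%) were below cycle 35 in the control, against 43.0% of all 365 miRNA assays. In ANGPTL1 cells 10 (30.3%) were detected, against 43.3% of all assays. The 3 assays detected in the control were also detected in ANGPTL1 cells, so that 3 of the 33 (9.1%) were detected in both samples, against 39.7% of all assays. These counts depend on the limit: below cycle 38, 11 of the 33 were detected in vector control cells and 15 in ANGPTL1 cells, and below cycle 40, 13 and 16. A further 7 of the 33 (21.2%) were detected in ANGPTL1 cells alone, compared with 3.56% over the card, and 0 in the control alone, compared with 3.29%. Among the 332 other assays, 6 were detected only in ANGPTL1 cells and 12 only in the control.

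**Figure D1:**
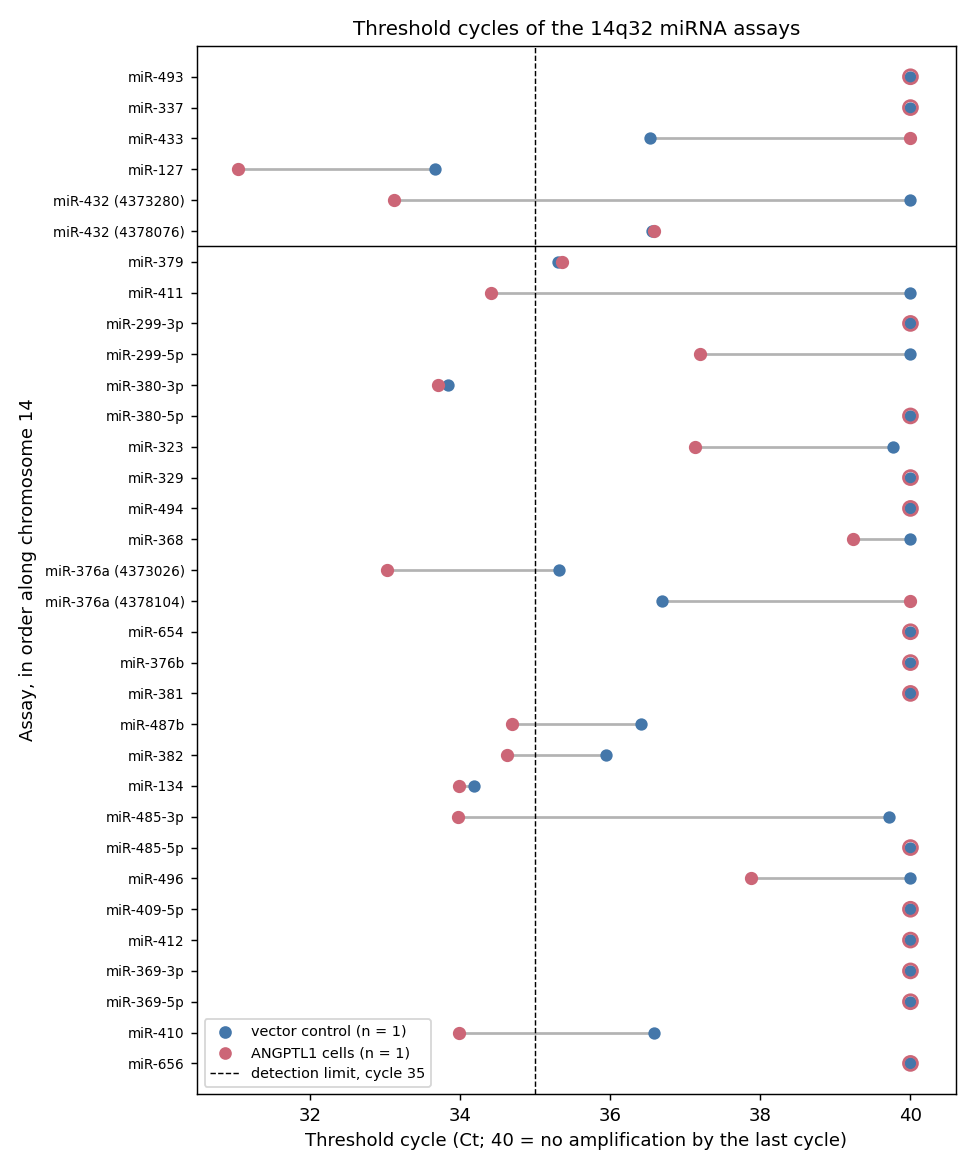
Threshold cycles of the 33 assays of 14q32 miRNAs (x axis, PCR cycles, more template to the left) in the control (blue) and in ANGPTL1 cells (red), 1 sample each, in order along chromosome 14; the horizontal line divides the RTL1-antisense group and miR-337 above from the miR-379 to miR-656 group below. A red ring around a blue point marks equal values, which were the 15 assays at 40 in both samples; 14 assays were earlier in ANGPTL1 cells and 4 in the control.

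In the RTL1-antisense group 1 of 5 assays was detected in the control (20.0%) and 2 in ANGPTL1 cells (40.0%). miR-127, which is known to repress the transcription factor BCL6, crossed threshold at cycle 33.66 in vector control cells and 31.04 in ANGPTL1 cells. Its delta Ct was 12.87 and 9.83, a log2 ratio of 3.04 or 8.22-fold more in ANGPTL1 cells. This was the earliest cycle of any 14q32 assay in either sample. Its ratio was the second highest of the 145 assays detected in both samples on the whole card, of which 7.59% were 2-fold or more higher there.

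The assay of miR-432 with number 4373280 stood at 40 in vector control cells and at cycle 33.12 in ANGPTL1 cells. With the control set to cycle 35 it was at least 4.92-fold higher in ANGPTL1 cells, a log2 bound of 2.30. The authors' deposited table, which uses the value of 40, gives 158-fold. The other assay of that name, number 4378076, stood at cycle 36.56 in vector control cells and 36.58 in ANGPTL1 cells, nearly equal and past the limit in both. The 2 miR-432 assays thus gave different pictures, and the name does not say which of them reads miR-432-5p and which miR-432-3p.

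miR-433, from the hairpin just upstream of miR-127, had the later cycle in ANGPTL1 cells. It stood at 36.53 in vector control cells and 40 in ANGPTL1 cells, past the limit in both, so that no difference was detectable. miR-493 stood at 40 in both samples. miR-337, whose hairpin lies between those of miR-493 and miR-431, was also at 40 in both. Within the group the signal therefore came from MIR127 and MIR432, 2 hairpins inside the RTL1 span.

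In the miR-379 to miR-656 group 2 of 27 assays were detected in the control (7.4%) and 8 in ANGPTL1 cells (29.6%). Both detected in the control had measured ratios, and both were small. miR-134, which in neurons represses LIMK1 and limits dendritic spine size, stood at cycle 34.19 in vector control cells and 33.98 in ANGPTL1 cells, and its log2 ratio was 0.63 (1.55-fold). miR-380-3p stood at 33.84 and 33.70, a log2 ratio of 0.56 (1.47-fold). Neither passed 2-fold, and without normalization to RNU48 their cycles differed by -0.21 and -0.14 (ANGPTL1 cells minus control). In order of ratio they were 22nd and 26th of the 145 assays detected in both samples.

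The other 6 detected members of this group were seen in ANGPTL1 cells alone. miR-376a (number 4373026), a miRNA known to be edited by adenosine deaminases in its seed, stood at cycle 35.32 in the control, just past the limit, and at 33.03 in ANGPTL1 cells, at least 5.24-fold higher. Its deposited cycles, without the bound, gave a log2 ratio of 2.71. miR-485-3p stood at 39.71 in vector control cells and 33.97 in ANGPTL1 cells, at least 2.73-fold higher. miR-410 stood at 36.58 and 33.98, at least 2.71-fold higher.

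miR-411 stood at 40 in vector control cells and 34.41 in ANGPTL1 cells, at least 2.01-fold higher. miR-382 stood at 35.94 and 34.62, and miR-487b at 36.41 and 34.69; their bounds, at least 1.74-fold and at least 1.66-fold, did not reach 2-fold. In ANGPTL1 cells these 6 assays and miR-432 lay between cycles 33.03 and 34.69, close to the limit. Of the 7 assays, 2 stood at 40 in vector control cells and 5 between cycles 35.32 and 40. The authors' deposited table, with the cycles up to 40, gives 71.5-fold for miR-485-3p, 64.4-fold for miR-411, 8.11-fold for miR-410, 6.54-fold for miR-376a, 4.41-fold for miR-487b and 3.34-fold for miR-382.

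The size of these bounds follows from the cycle in ANGPTL1 cells alone. An assay detected there alone has a log2 bound above 0.42 by construction, and passes 2-fold when its cycle is at or before 34.42. miR-411 at 34.41 lay just inside that value and miR-382 at 34.62 just outside. In the other direction, an assay detected in the control alone must be at or before cycle 33.58 to count as 2-fold lower. The rule is thus easier to meet on the higher side, for members and for the whole card alike.

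**Figure D2:**
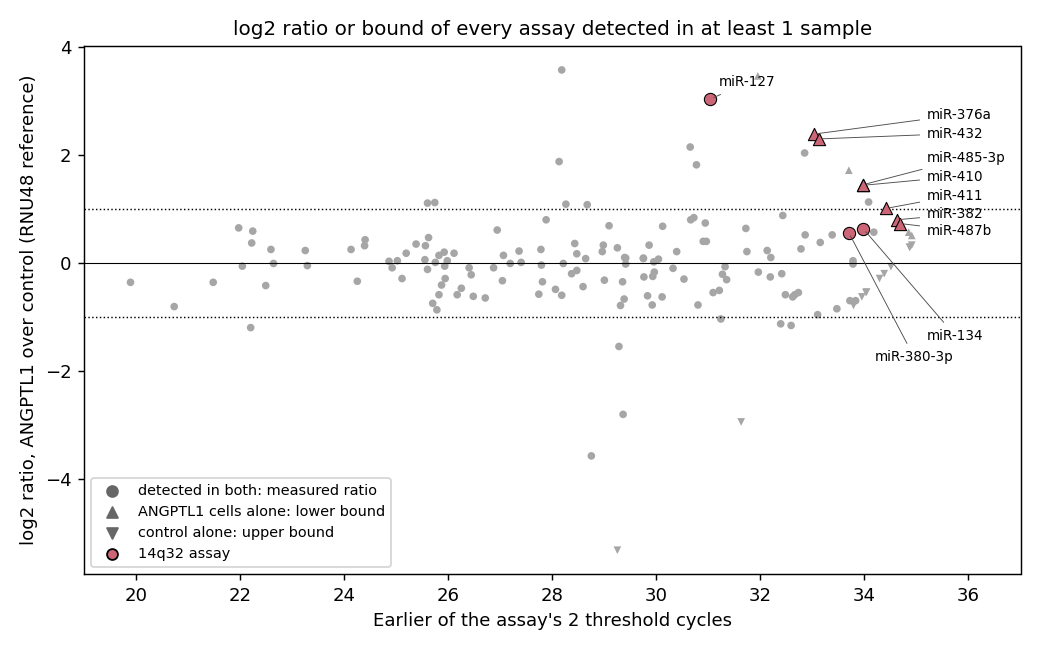
log2 ratio of ANGPTL1 cells over control, relative to RNU48 (y axis), against the earlier of an assay's 2 threshold cycles (x axis) for the 170 assays detected in at least 1 sample; circles are measured ratios, triangles pointing up are lower bounds, triangles pointing down are upper bounds, red marks the 10 assays of 14q32 miRNAs and dotted lines mark 2-fold. The 10 red points lie at cycle 31.04 or later and all are above 0, from 0.56 (miR-380-3p) to 3.04 (miR-127).

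Taking measured ratios and bounds together, 6 of the 10 detected 14q32 assays passed 2-fold on the side of ANGPTL1 cells, where 11.8% of the 170 assays detected in at least 1 sample were. These were miR-127, miR-376a (4373026), miR-432 (4373280), miR-485-3p, miR-410 and miR-411. At least 2-fold lower were 0 of the 10, with 5.29% over the 170 assays. The 10 ratios or bounds had a median of 1.23 on the log2 scale, and the 160 other detected assays one of -0.01. Most of the 10 values are bounds that detection in ANGPTL1 cells alone places above 0, so their sign is no separate result. Among the other assays whose earlier cycle lay from 30 to 35, as for all 10 members, 8 of 65 (12.3%) were at least 2-fold higher and 4 lower, 6 were detected only in ANGPTL1 cells and 11 only in the control; this view was added after the values were seen.

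With raw cycles in place of delta Ct, 5 of the 10 were at least 2-fold higher, all of the former but miR-411, where 8.24% of the 170 assays were. The share of assays at least 2-fold lower was then 19.4%, with 0 of the 10 members. Leaving out the RNU48 reference moves every log2 ratio down by 0.42 and the median over the 145 assays detected in both samples from -0.01 to -0.43. The median cycle of these 145 assays, as another reference taken in each sample separately, was 29.25 in vector control cells and 29.20 in ANGPTL1 cells. It left 3 members past 2-fold, miR-127, miR-376a and miR-432. With the median log2 ratio of these assays set to 0 instead, an alternative chosen after seeing the data, 6 members passed.

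Both groups held assays detected in ANGPTL1 cells alone, 1 of 5 in the RTL1-antisense group and 6 of 27 in the miR-379 to miR-656 group (20.0% and 22.2%). In the detected members of the first group the log2 values were 3.04 (measured) and 2.30 (bound), with a median of 2.67. In the second they ran from 0.56 to 2.39 with a median of 0.91, from 2 measured ratios and 6 bounds. Bounds do not order the assays: without them, the deposited cycles give log2 differences of 6.16 for miR-485-3p, 6.01 for miR-411 and 3.02 for miR-410 in the second group and 7.30 for miR-432 in the first. The order of the group medians also turned with the limit, to 1.72 in the first group and 2.35 in the second when every assay below cycle 40 counted as detected. At least 2-fold higher were 2 of the 2 detected assays of the first group and 4 of the 8 of the second. Over the 170 assays detected in at least 1 sample the share was 11.8%. For members detected in ANGPTL1 cells alone the call follows from their cycle there. These counts and medians therefore do not compare the groups. The 2 measured ratios of the second group, 0.63 and 0.56, were both below the 1 measured ratio of the first, 3.04. With 1 sample of each kind and 5 assays in the smaller group, the difference between the groups was not tested.

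The raw cycles were also compared without a limit or bound. In the RTL1-antisense group 2 assays were earlier in ANGPTL1 cells, 2 in vector control cells and 1 stood at 40 in both. In the miR-379 to miR-656 group 12 were earlier in ANGPTL1 cells, 2 in vector control cells and 13 stood at 40 in both. Over all 33 assays 14 were earlier in ANGPTL1 cells and 4 in the control. Over all assays on the card the raw shares were 20.8% and 43.6%. The 10 assays detected in ANGPTL1 cells are among the 14; the 23 assays undetected in both samples comprised 4 with the earlier cycle in ANGPTL1 cells, 4 with the earlier cycle in the control and 15 at 40 in both. Of the latter 4, miR-379 and miR-432 (4378076) differed by 0.05 and 0.02 cycles, less than the shift of RNU48. The card's lean to the control was one of raw cycles in detected assays. Among the 145 with detection in each sample, 30 had the lower raw cycle with ANGPTL1, but 72 had a log2 ratio above 0 relative to RNU48. The card's 195 undetected assays split almost evenly, 33 with the lower cycle under ANGPTL1 and 32 under the vector. The raw shares of the whole card are therefore no even baseline for the 14q32 counts.

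**Figure D3:**
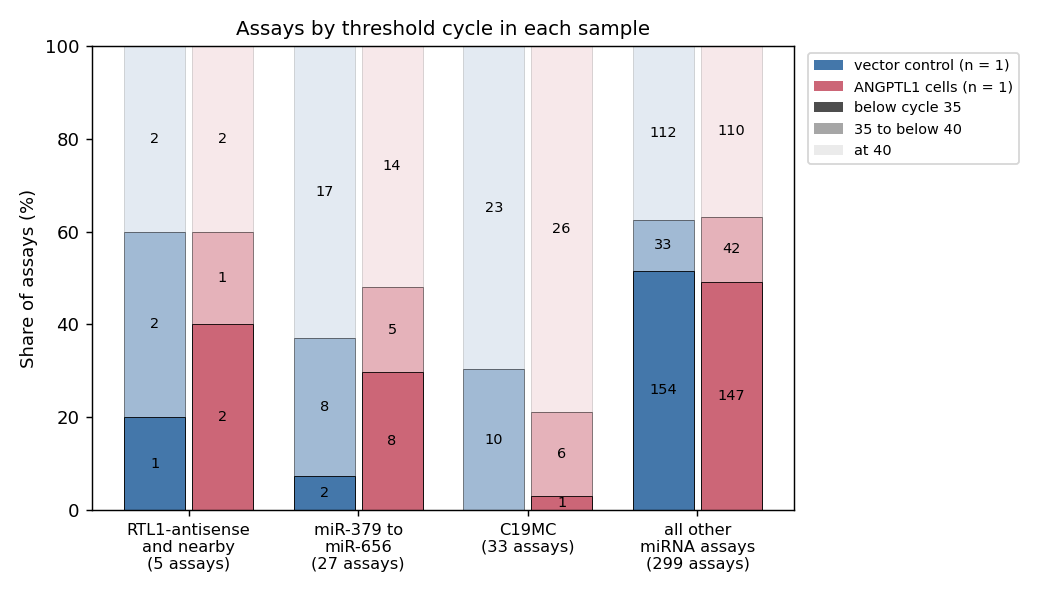
Share of assays (y axis, percent) below cycle 35 (dark), from 35 to below 40 (medium) and at 40 (pale) in the control (blue) and in ANGPTL1 cells (red), 1 sample each, for the 2 groups of 14q32 assays, the C19MC cluster and the 299 remaining miRNA assays; numbers in the bars count assays, and miR-337, at 40 in both samples, is left out. Detected assays of the miR-379 to miR-656 group numbered 2 in vector control cells and 8 in ANGPTL1 cells, and those of the 299 remaining assays 154 and 147.

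The members past cycle 35 in both samples numbered 23. Of these 15 stood at 40 in both: miR-299-3p, miR-329, miR-337, miR-369-3p, miR-369-5p, miR-376b, miR-380-5p, miR-381, miR-409-5p, miR-412, miR-485-5p, miR-493, miR-494, miR-654 and miR-656. Earlier in ANGPTL1 cells were 4: miR-323 (39.77 in vector control cells and 37.13 in ANGPTL1 cells), miR-299-5p (40 and 37.19), miR-496 (40 and 37.87) and miR-368 (40 and 39.24). Earlier in the control were miR-433, miR-376a (4378104), at 36.69 and 40, miR-379, at 35.31 and 35.36, and miR-432 (4378076). Of these miR-379 came closest to the limit. At such late cycles a difference was not detectable at this depth. The authors' deposited table gives 1.34-fold for each assay at 40 in both samples, which is the difference of the RNU48 cycles and not a measurement of the miRNA.

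For 4 hairpins of the second group both arms had an assay of their own. Of miR-485, the 3p arm was detected in ANGPTL1 cells and the 5p arm stood at 40 in both samples. For miR-380 the 3p arm was detected in both samples, and the 5p arm, known as a repressor of p53, was at 40 in both. miR-299-5p appeared at cycle 37.19 in ANGPTL1 cells while miR-299-3p was at 40. Both arms of miR-369 stood at 40. In the 2 hairpins with a detected arm it was the 3p arm.

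The miR-376 family holds closely related members with assays of their own. Its 3p arms, printed here because they differ by only 1 or 2 bases over the first 21, were the following.
miR-376a-3p: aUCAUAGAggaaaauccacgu
miR-376b-3p: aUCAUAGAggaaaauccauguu
miR-376c-3p: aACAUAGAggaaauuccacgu
From miR-376a-3p to miR-376b-3p the difference is C19U, and miR-376b-3p is 1 base longer. From miR-376a-3p to miR-376c-3p the differences are U2A, in the seed, and A14U. The miR-376b assay stood at 40 in both samples, and that of miR-368, an older name RefSeq lists for MIR376C, at 40 in vector control cells and 39.24 in ANGPTL1 cells. Of the 2 assays of miR-376a, number 4373026 was detected in ANGPTL1 cells, and number 4378104 went from 36.69 in the control to 40 there. Mature miR-376a-3p comes from 2 hairpins, MIR376A1 and MIR376A2, with the same sequence, and no assay can tell them apart. Which arm each assay reads was not settled by the names, and cycles of different assays do not rank these miRNAs against each other.

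Along the chromosome, detected and undetected assays were interleaved. MIR382, MIR134 and MIR485 stand next to each other within 1186 bases (chr14:101054306-101055491), and each had an assay detected in ANGPTL1 cells. Of these only miR-134 was also detected in the control. MIR411 and MIR380, near the start of the array, gave detected assays, while MIR329 and MIR494, the next hairpins with assays after MIR323A, were at 40. At the far end miR-410 was detected in ANGPTL1 cells between undetected neighbours, with both arms of miR-369 on one side and miR-656 on the other at 40 in both samples.

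**Figure D4:**
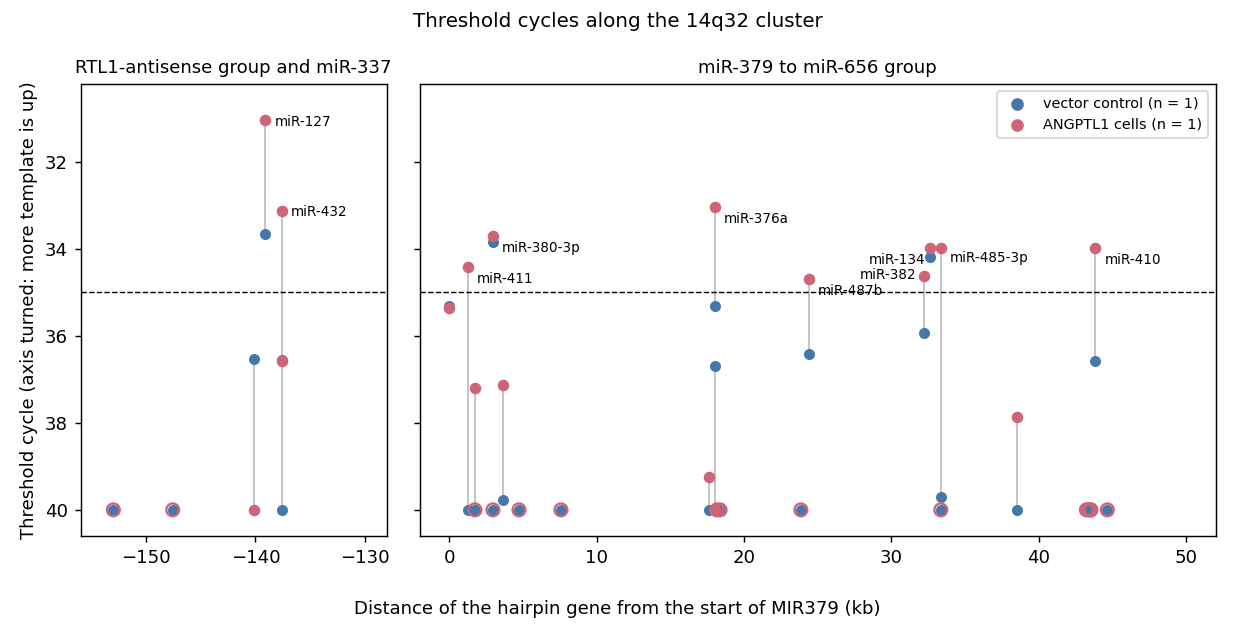
Threshold cycle (y axis, turned so that more template is up) of each 14q32 assay in the control (blue) and in ANGPTL1 cells (red), 1 sample each, against the distance of its hairpin gene from the start of MIR379 (x axis, kb); the left panel holds the RTL1-antisense group and miR-337, the right panel the miR-379 to miR-656 group, a grey line joins the values of 1 assay and the dashed line marks cycle 35. Names mark the 10 assays detected in ANGPTL1 cells, 2 in the left panel and 8 in the right.

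The C19MC cluster on chromosome 19, another imprinted array of miRNAs, active in placenta and expressed from the paternal chromosome, was set beside the 14q32 members. Of its 33 assays 0 were detected in vector control cells and 1 in ANGPTL1 cells (3.0%). A total of 4 were earlier in ANGPTL1 cells and 8 in the control, and 21 stood at 40 in both. The corresponding numbers of the 33 assays of 14q32 miRNAs were 14, 4 and 15; the difference between the clusters was not tested.

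Marker miRNAs of several cell types were read on the same card. The summed levels below add every assay of a list at its deposited cycle, also those past the limit or at 40. They join assays of differing primer efficiency and do not measure detected miRNA alone. Of the fibroblast and smooth muscle list (miR-143, miR-145, miR-199a and miR-214) 1 of 5 assays was detected in each sample, and miR-143, miR-145 and 1 assay of miR-199a stood at 40 in both; the summed level was 0.155 in vector control cells and 0.108 in ANGPTL1 cells per 1000 of RNU48. In the neuronal list 2 of 4 assays were detected in vector control cells and 3 in ANGPTL1 cells, with miR-124a at 40 in both and summed levels of 34.9 and 21.1 per 1000 of RNU48, nearly all from miR-9. The list's member miR-137 went from cycle 35.74 in the control, past the limit, to 33.11 in ANGPTL1 cells. Both miR-9 assays went the other way, with log2 ratios of -0.75 and -0.63. The muscle list had 1 of 4 assays detected in each sample (summed levels 0.259 and 0.24), with miR-206 at 40 in both and miR-1 at 40 in vector control cells and 35.35 in ANGPTL1 cells. Of the blood list 1 of 4 was detected in vector control cells (miR-142-3p, at 34.51) and 0 in ANGPTL1 cells, where miR-142-3p stood at 37.19. Its sums were 0.118 and 0.0662, the latter wholly from assays past the limit. The epithelial list had 2 of 7 assays detected in each sample (summed levels 1.56 and 2.35), miR-200c with a log2 ratio of 1.82 and miR-203 with -0.30. In this list miR-141 went from 40 in vector control cells to 35.40 in ANGPTL1 cells, and miR-205 and miR-200b stood at 40 in both. The part of these differences in the 14q32 result was not tested.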

How the data were processed

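Per the labels' protocols, total RNA (500 ng) was reverse-transcribed in a multiplexed reaction and read on a TaqMan Low Density Array card of human miRNA assays over 40 cycles. The authors deposited 3 tables. The first holds average threshold cycles, per the file headers; how many wells were averaged, and at which threshold, is not given in the sources used here. The second holds delta Ct against RNU48, a log2 scale deposited by the authors, which differed from the deposited cycles' differences by at most 0.010. The third holds the authors' fold change, a ratio of ANGPTL1 cells over control. A further 2 columns of linear relative levels were not used. Members and lists were chosen with earlier results of these data known. Named were all members, with full values for those below cycle 35 in at least 1 sample and for names on 2 assay numbers. Names were matched to RefSeq genes of GRCh38.p14 by symbol or synonym. Counts and medians were computed with Python 3.11.15. The median over members detected in both samples and the bounds were checked on simulated cycles, and the counts and group medians were not. No test was possible with 1 sample per group. Alternatives were other detection limits, references, fold rules, doubled names, deposited cycles in place of bounds and miR-337 in the first group.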

Additional observations from a re-analysis of the deposited data

How the results depend on the processing

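Over 77 recomputed values of 12 counts and medians, 35 stayed within 1.5 times (counts) or 0.02 (medians) and 42 moved by more. Counts cannot change sign, and of the medians 0 did. The group medians included bounds that detection in ANGPTL1 cells alone placed above 0 in the main setting. That no sign changed is therefore no separate result. Other detection limits count fewer or more assays. Below cycle 32, assays detected were 0 in the control, 1 in ANGPTL1 cells (miR-127) and 0 in both samples; 1 was at least 2-fold higher, the RTL1-antisense group had 0 detected in the control and 1 in ANGPTL1 cells, with a median bound of 1.38, and the miR-379 to miR-656 group had 0 in either sample. No median over members detected in both samples, or over the second group, could be had there. Below cycle 38, 11 were detected in the control, 15 in ANGPTL1 cells and 9 in both samples with a median of 1.74; 10 were at least 2-fold higher and 1 lower, the first group had 3 detected in the control and a median of 1.72, and the second had 8 and 1.29. With the last cycle as the only limit, 13 were detected in the control, 16 in ANGPTL1 cells and 11 in both with a median of 2.14; 12 were at least 2-fold higher and 2 lower, the first group had 3 detected in the control and a median of 1.72, and the second had 10 detected in the control, 13 in ANGPTL1 cells and a median of 2.35, so that the order of the group medians reversed.

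Without normalization the median over members detected in both samples was 0.21, that of the first group 2.25 and of the second 0.49. With the median cycle of the assays detected in both samples as reference, they were 0.16, 2.20 and 0.44, and 3 assays were at least 2-fold higher. With the median log2 ratio of those assays set to 0, an alternative chosen after seeing the data, they were 0.64, 2.68 and 0.92, with 6 assays higher. At 4-fold 3 assays were higher. With the deposited cycles up to 40 in place of bounds, the medians were 5.17 in the first group and 2.42 in the second. Leaving out miR-376a and miR-432 left 1 assay detected in ANGPTL1 cells in the first group, and medians of 3.04 and 0.80. Counting miR-337 in the first group changed nothing. No paired analysis was possible because there was only 1 sample per group. No replicate could be left out.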

Other observations

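An assay named miR-453, outside the list of members, maps through an older symbol to MIR323B, in the same array on chromosome 14. It stood at 40 in both samples.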
